A study of Mus musculus with 2 samples.

Results

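*Prnp*, the gene of the prion protein PrP, is 1 of the 18159 gene symbols in the mRNA-seq table of jejunal tunica muscularis, the muscle coat of the second stretch of small intestine. It was chosen by its levels in that table, which were 111.12 FPKM for *Dnmt1*-WT and 1976.73 FPKM for *Dnmt1*-KO, a ratio of 17.8, so these values are given as a description. FPKM are fragments scaled to transcript length and to the depth of the library, so levels of different genes can be set side by side. The enzyme DNMT1 keeps DNA methylation in place when the genome is replicated. *Dnmt1*-KO mice carried Dnmt1lox/lox alleles and the transgene Tg(Myh11-cre,-EGFP)2Mik, in which the promoter of *Myh11*, the smooth muscle myosin heavy chain gene, drives Cre recombinase and eGFP, so cells that do not use this promoter keep *Dnmt1*. *Dnmt1*-WT mice carried the same Cre transgene (smMHCCre-eGFP/+), and all mice were on a C57BL/6 background and 15 days old. The labels give both libraries the same strain entry, with the floxed alleles, and their free text names the knockout for both, while the title and the genotype entry of one give Dnmt1 WT. The methods do not give floxed alleles for the *Dnmt1*-WT mice. RNA was taken from the muscle coat after it had been stripped off the mucosa, so all other cells of that coat were included, and both sexes contributed.

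Each genotype had 1 library, so there was no replicate check, no test was made, and every value below describes these 2 libraries. The table gives no counts of fragments, and no counting error was computed. *Dnmt1* itself was at 11.58 FPKM in *Dnmt1*-WT and 7.58 FPKM in *Dnmt1*-KO, and such values cannot show how much of that RNA carried the deletion. The defining smooth muscle transcripts were abundant in both libraries, with *Acta2* (smooth muscle alpha actin) at 5408.13 and 4016.24 FPKM. In bulk tissue, more or fewer cells of one type and more or less RNA per cell cannot be told apart.

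PrP is a glycoprotein held on the outer face of the cell membrane by a glycosylphosphatidylinositol (GPI) anchor, and it binds copper through a repeat region near its amino terminus. It is abundant in neurons and is also made in glia, lymphoid and myeloid cells, muscle and other tissues. Its misfolded form is the infectious agent of the prion diseases, and when acquired by mouth it can reach the brain through lymphoid tissue and nerves of the gut. The gene has long been described as having a promoter rich in CG dinucleotides and GC boxes, of the kind found in broadly expressed genes.

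The 250 bases before the start of *Prnp* in RefSeq (assembly GRCm38.p6) lie on the plus strand at chr2:131909678-131909927. They are shown because CG dinucleotides are the sites on which DNMT1 acts, and because *Prnp* can be set beside its family members *Prnd* (chr2:131950611-131950860, plus strand) and *Sprn* (chr7:140154660-140154909, minus strand). Each is written 5′ to 3′ and ends at the base before the start, with every CG dinucleotide in capitals. *Prnd*, which encodes doppel, had more than 1 window in RefSeq, of which the first was taken, and *Sprn* encodes shadoo, a second PrP-like protein of the cell surface.
Prnp: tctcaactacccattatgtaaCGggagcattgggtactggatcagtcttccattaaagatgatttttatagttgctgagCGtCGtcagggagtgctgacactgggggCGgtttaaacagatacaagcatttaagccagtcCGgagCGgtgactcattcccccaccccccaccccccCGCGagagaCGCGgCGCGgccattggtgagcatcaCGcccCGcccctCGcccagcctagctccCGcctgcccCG
Prnd: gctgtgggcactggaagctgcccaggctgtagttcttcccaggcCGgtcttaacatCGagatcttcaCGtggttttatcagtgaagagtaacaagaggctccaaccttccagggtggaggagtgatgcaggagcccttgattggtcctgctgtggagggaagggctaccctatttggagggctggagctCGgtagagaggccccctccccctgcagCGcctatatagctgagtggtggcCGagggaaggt
Sprn: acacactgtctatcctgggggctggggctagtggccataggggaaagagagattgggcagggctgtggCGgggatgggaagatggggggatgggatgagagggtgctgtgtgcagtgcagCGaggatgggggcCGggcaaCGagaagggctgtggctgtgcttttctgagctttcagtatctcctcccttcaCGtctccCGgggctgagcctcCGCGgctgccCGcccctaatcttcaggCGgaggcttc

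The *Prnp* window held 17 CG dinucleotides, against 6 in that of *Prnd* and 10 in that of *Sprn*. It was 58.8% G or C, and the CG count was 0.80 times that predicted from its base composition. The matching ratios were 0.29 for *Prnd* and 0.43 for *Sprn*. Of 32851 windows of the same length (27025 genes), 76.5% had fewer CG dinucleotides than *Prnp*, and the median window had 6. The CG dinucleotides of *Prnp* were crowded toward the start, with 11 of the 17 within 100 bases of it. The GC box GGGCGG, searched on both strands, was found at 2 places, 146 to 141 and 35 to 30 bases before the start, and 32.7% of all windows held at least 1 copy and 16.7% at least 2. Each copy contains a CG dinucleotide. The CCAAT box, as CCAAT on either strand, was found 222 to 218 and 53 to 49 bases before the start, and 33.8% of windows held at least 1 and 10.1% at least 2. TATAAA on either strand was found once, 186 to 181 bases before the start, and 12.4% of windows held it. None of these matches overlapped another motif. The matches describe the letters of the window and were not tested as binding sites, and DNA methylation was not analysed here.

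In GENCODE M21 (GRCm38) *Prnp* spans chr2:131909928-131938429 on the plus strand, with 2 annotated transcripts. The mRNA is 2184 bases long and has 3 exons of 76, 98 and 2010 bases. The whole coding stretch of 762 bases lies in exon 3, at chr2:131936430-131937191, so exons 1 and 2 are 5′ untranslated and most of exon 3 is 3′ untranslated. The deposited table counted 2 transcript variants of *Prnp* in each library. That was the usual pattern: of 4879 genes with 2 variants in the *Dnmt1*-WT library that were detected in the *Dnmt1*-KO library, 73.6% had 2 there too. The table gives no level per variant.

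By level, *Prnp* was the 564th gene of the *Dnmt1*-WT library and the 13th of the *Dnmt1*-KO library. It made up 0.0259% of the summed FPKM of the first and 0.429% of that of the second. The 12 genes above it in the *Dnmt1*-KO library were the contractile genes *Myl6*, *Acta2*, *Myl9*, *Actg2* and *Tpm1*, the cytoskeletal actin gene *Actb*, the ribosomal protein genes *Rpl41*, *Rps21*, *Rpl38* and *Rps27*, the ATP synthase subunit gene *Atp5k*, and *Mir703*, a microRNA gene. These ran from 2018.19 FPKM (*Tpm1*, tropomyosin 1) to 5286.58 FPKM (*Mir703*) in the *Dnmt1*-KO library and from 1216.46 to 6441.38 FPKM in the *Dnmt1*-WT library. *Prnp* thus stood in the *Dnmt1*-KO library just above *Eef1a1*, the translation elongation factor gene, at 1939.82 FPKM. In the *Dnmt1*-WT library *Eef1a1* was at 2347.09 FPKM.

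The gain of *Prnp* between the libraries was 1865.61 FPKM. Of all 18159 genes only *Mir703* gained more, from 1774.86 to 5286.58 FPKM, and *Rpl38* came next after *Prnp* with a gain of 1341.66 FPKM. *B2m*, the light chain of MHC class I molecules, gained 1145.51 FPKM. The 4 genes after *Prnp* by gain, *Rpl38*, *Rpl41*, *Rps27* and *B2m*, were at 415.79 FPKM or more in *Dnmt1*-WT, and their ratios were between 1.56 (*Rpl41*) and 3.76 (*B2m*).

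By ratio, *Prnp* ranked 77th of the 16102 genes above 0 in both libraries. Among those genes, 11.8% had a ratio of 2 or more and 4.98% a ratio of 0.5 or less. Genes called past a limit below are past one of these, whereas higher or lower alone means any difference in level. The 76 other genes with a ratio at least as large as that of *Prnp* were scarce in the *Dnmt1*-WT library, with a median of 0.115 FPKM. The highest of them there was *H2-Ab1*, an MHC class II chain, at 5.46 FPKM. In the *Dnmt1*-KO library the highest was *A430078G23Rik*, at 472.04 FPKM. No gene combined a *Dnmt1*-WT level as high as that of *Prnp* with as large a ratio.

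**Figure D1:**
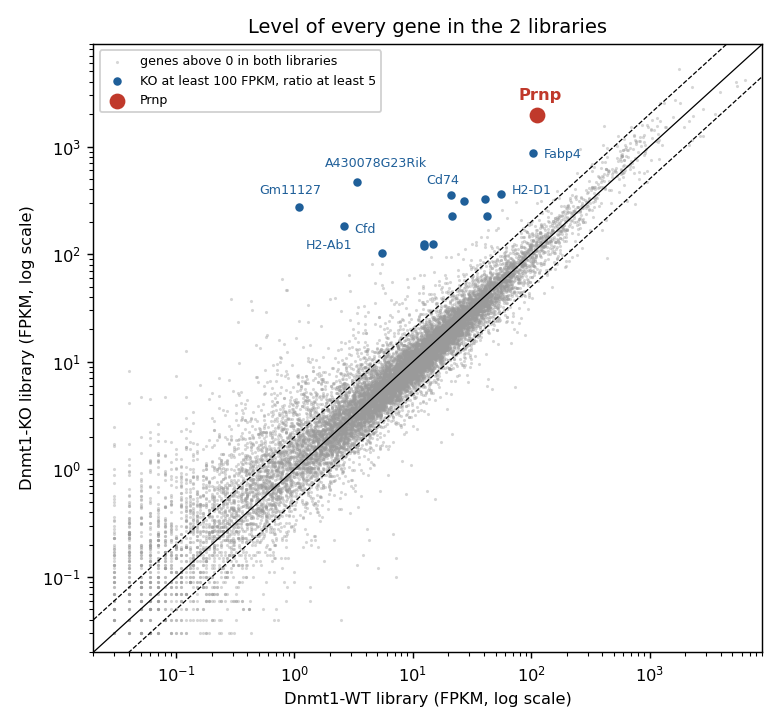
FPKM of each gene above 0 in both libraries, *Dnmt1*-WT on the horizontal and *Dnmt1*-KO on the vertical axis (both log scale), with the line of equal levels solid and ratios of 2 and 0.5 dashed. *Prnp* (red) lies at 111.12 and 1976.73 FPKM, above and to the right of the 14 other genes with at least 100 FPKM in the *Dnmt1*-KO library and a ratio of at least 5 (blue, some named).

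The genes of its own *Dnmt1*-WT level were those within 2 times 111.12 FPKM, that is from 55.56 to 222.24 FPKM. There were 970 of them with *Prnp*, and 14 (1.44%) had a ratio of 2 or more, a count that ran from 9 to 20 under other scalings of the libraries. The other 969 had a median ratio of 0.99, and 461 of them were above 1. Their 5th and 95th percentiles were 0.52 and 1.59. *Prnp* ranked first with its ratio of 17.8, and after it came *Fabp4*, the fatty acid binding protein of adipocytes, at 103.72 and 874.84 FPKM (ratio 8.43).

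The next was *Mt1*, a metallothionein that binds zinc and copper, with 56.38 and 255.82 FPKM (4.54), and the haemoglobin beta chain gene *Hbb-bs*, with 75.01 and 304.43 FPKM (4.06). *Mfap4*, an elastic fibre protein, had a ratio of 3.46. The other 9 genes past a ratio of 2 lay between 2.07 (*Ly6e*, which encodes a GPI-anchored protein) and 2.65 (*Bgn*, the matrix proteoglycan biglycan). The MHC class I gene *H2-D1* lay just outside the lower limit of the level range, at 55.39 and 363.54 FPKM, a ratio of 6.56. At this level, ratios of 0.5 or less were more frequent than ratios of 2 or more, with 39 of the 969 against 13 (2 of the 39, both microRNA genes, were listed at 0 in *Dnmt1*-KO), whereas *Prnp* lay at the far end of the less frequent direction. Of all 645 genes at 100 FPKM or more in *Dnmt1*-WT, 2.95% had a ratio of 2 or more and 3.88% one of 0.5 or less.

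**Figure D2:**
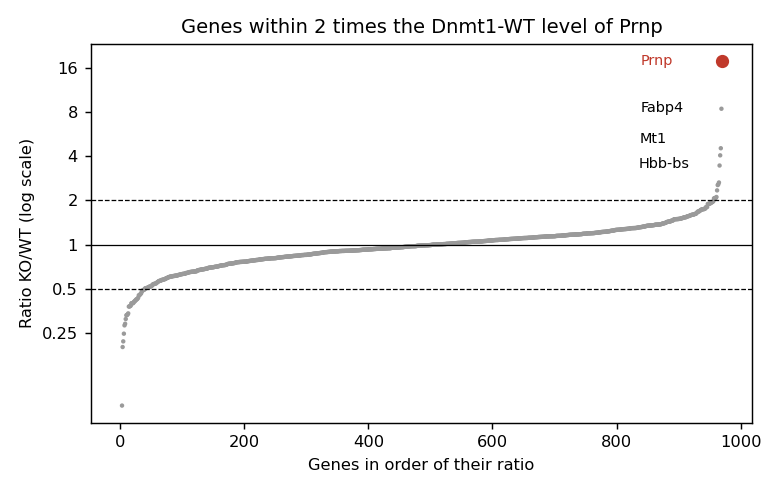
Ratio of *Dnmt1*-KO to *Dnmt1*-WT FPKM (vertical, log scale) of the 970 genes between 55.56 and 222.24 FPKM in the *Dnmt1*-WT library, in order of their ratio (horizontal), without 2 that were listed at 0 in *Dnmt1*-KO and have no place on a log scale. The solid line marks equal levels and the dashed lines ratios of 2 and 0.5, and *Prnp* (17.8) and *Fabp4* (8.43) stand above the other points.

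*Prnp* was also first among genes of its *Dnmt1*-KO level. Of the 59 genes between 988.365 and 3953.46 FPKM in that library, 6 (10.2%) had a ratio of 2 or more. The next was *B2m*, at 415.79 and 1561.3 FPKM (3.76). It was followed by *Rpl39*, *Apoe* (apolipoprotein E, 542.76 and 1247.11 FPKM), *Col1a1* (a chain of type I collagen) and *Rpl38*, with ratios from 2.10 to 2.58. The median of the 58 others was 1.4, and 44 of them were above 1, in a group whose limits were set on the *Dnmt1*-KO level. Around the geometric mean of both levels of *Prnp*, 207 genes were found, of which 12 (5.80%) had a ratio of 2 or more, and *Prnp* was again first, before *Fabp4*.

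The 10 genes nearest to *Prnp* in the plane of the 2 levels, by the distance between log2(FPKM + 1) values over the 2 libraries, were *Fabp4*, *Eln*, *B2m*, *Rpl39*, *S100a6*, *Hspb1*, *Ftl1*, *S100a11*, *Ifitm3* and *Rpl29*. Even the nearest, *Fabp4*, was 1.18 log2 units away. *Eln*, the elastin gene, was at 259.87 and 960.54 FPKM and 1.60 units away. From *Rpl39* onward the distance was more than 2 units, so *Prnp* had no close neighbour in level and direction.

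With *Prnp*, 15 genes had at least 100 FPKM in the *Dnmt1*-KO library and a ratio of at least 5. *Prnp* had the highest level of the 15 in each library, and 4 had larger ratios. *Gm11127*, an MHC class I gene, was at 1.09 and 277.16 FPKM. *A430078G23Rik* was at 3.37 and 472.04 FPKM. *Cfd*, the adipocyte-secreted complement factor D, was at 2.61 and 182.62 FPKM, and *H2-Ab1* at 5.46 and 103.59 FPKM. Their levels in the *Dnmt1*-WT library were thus a small part of that of *Prnp*.

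The other 10 of these genes had ratios from 5.31 to 16.9. They included *Cd74*, the invariant chain of MHC class II molecules (21.19 and 357.75 FPKM), and the class I genes *H2-K1* (40.39 and 322.91 FPKM) and *H2-D1*. *Car3*, a carbonic anhydrase of adipocytes and muscle, was at 27.16 and 315.4 FPKM, and *Fabp4* belongs with it by expression in fat. *Igfbp2* binds insulin-like growth factors (21.26 and 224.58 FPKM), *Mt2* is a metallothionein (12.31 and 120.32 FPKM), *Cdkn1a* encodes the cell-cycle inhibitor p21 (14.72 and 124.9 FPKM), *Defa24* is a Paneth cell defensin (12.43 and 125.32 FPKM) and *Hba-a2* a haemoglobin alpha chain (42.34 and 224.69 FPKM).

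The other members of the prion family did not show a ratio near that of *Prnp*. *Prnd* was at 5.38 FPKM in the *Dnmt1*-WT and 7.89 FPKM in the *Dnmt1*-KO library (1.47), with 4 variants in each. *Sprn* was at 6.44 and 7.98 FPKM (1.24). *Prn*, a readthrough locus that joins the first exons of *Prnp* to the exons of *Prnd*, was at 0.29 and 0.25 FPKM (0.86). *Prnp* made up nearly all of the summed level of the family, 111.12 of 123.23 FPKM and 1976.73 of 1992.85 FPKM. Values of *Prn* and *Prnd* are uncertain, because 98.3% of the stretches of 50 bases in *Prnd* transcripts also occur in those of *Prn*. *Prnp* is little touched by this, as 97 of its 2135 such stretches (4.54%) occur in another gene, all of them in *Prn*. *Prn* and *Prnp* have the same start in RefSeq and hence the same 250 bases before it, although their levels differed widely.

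The neighbours of *Prnp* on chromosome 2 were compared next, since position played no part in its choice. The 10 listed genes on each side reached 733 kb to the left and 688 kb to the right, measured between left ends. Of these 20, 17 were above 0 in both libraries, with a median log2 ratio (of the plain FPKM, with nothing added) of -0.10. A ratio of 2 or more was found for 1 (5.88%), *Adra1d*, an alpha-1 adrenergic receptor, at 0.18 and 0.82 FPKM, and a ratio of 0.5 or less for 1, *Prokr2*, a prokineticin receptor, at 0.52 and 0.25 FPKM. Over all genes the shares were 11.8% and 4.98%, so a count of 1 among 17 is no result about the neighbours. Both levels of both genes were low. *Erv3* and *5330413P13Rik*, the nearest listed genes to the left, were listed at 0 in the *Dnmt1*-WT and at 0.08 and 0.12 FPKM in the *Dnmt1*-KO library, and *AU019990*, the last to the right, at 0 in both.

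The 14 neighbours with at least 1 FPKM in one library had ratios from 0.52 to 1.47. The extremes were *Rassf2*, a Ras association domain protein, at 40.57 and 21.02 FPKM, and *Prnd*, which is also the nearest of the 14. *Smox*, spermine oxidase, was at 14.99 and 19.18 FPKM, and *Pcna*, the sliding clamp of DNA replication, at 38.31 and 45.52 FPKM. *Mavs*, an adaptor of antiviral signalling, was at 21.79 and 12.78 FPKM. *Cenpb*, a centromere protein and the most abundant neighbour, was at 76.28 and 71.9 FPKM. None of the 14 had a ratio of 2 or more.

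**Figure D3:**
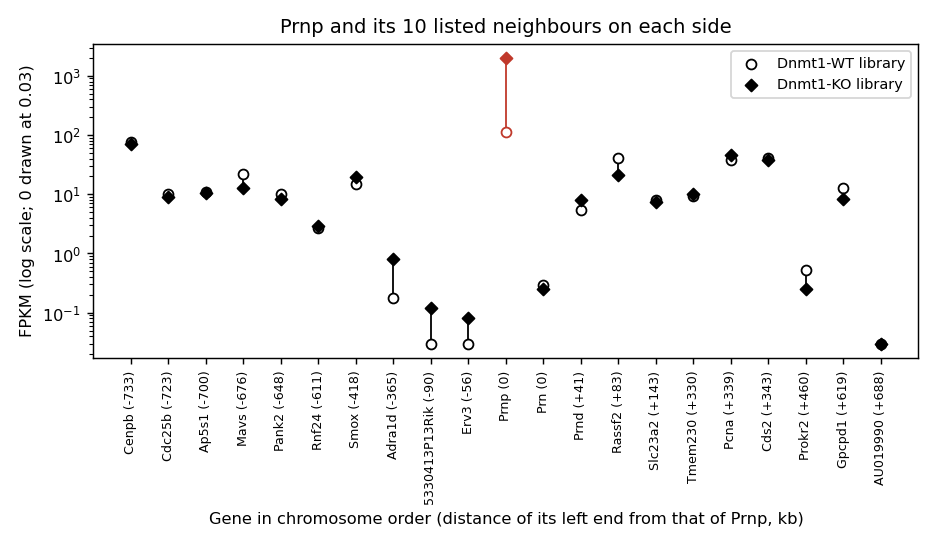
FPKM (log scale, 0 drawn at 0.03) of *Prnp* in red and of the 10 listed genes on each side of it in chromosome order, with the distance of each left end from that of *Prnp* in kb, *Dnmt1*-WT as open circles and *Dnmt1*-KO as filled diamonds. *Prnp* goes from 111.12 to 1976.73 FPKM, and the highest neighbour, *Cenpb*, is at 76.28 and 71.9 FPKM.

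The CG count of the window before the start was compared with that of other genes at the *Dnmt1*-WT level of *Prnp*. Of the 969 others, 796 had a RefSeq window, with a median of 16 CG dinucleotides, and 394 had at least the 17 of *Prnp*. Of the 163 whose count was within 2 of that of *Prnp*, 2 had a ratio of 2 or more, near the 1.44% of the whole level range, and the median ratio was 0.999. The highest was 4.54 (*Mt1*). The same check was void for the 13 others with a ratio of 2 or more and for the 14 other abundant genes with ratios of 5 or more, because too few had a window, 8 in each case, and their CG counts are not given. Genes were also split into 10 equal groups by transcript length and by transcript GC content. The length group of *Prnp* (1532 genes) had a median log2 ratio of 0.10, and its GC group (1533 genes, *Prnp* itself at 49.7% GC) one of -0.01. *Prnp* had the highest ratio in each, among the 1180 and 1244 members with at least 1 FPKM in *Dnmt1*-WT.

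The genes that act on PrP or with it were taken as lists, with counts of members past a ratio of 2 or 0.5 and the median log2 ratio of FPKM + 0.1. Over all 17585 genes above 0 in at least 1 library that median was 0.02, and 9059 were higher in the *Dnmt1*-KO library. The shares of all genes past a ratio of 2 and 0.5, 11.8% and 4.98%, are the background for each count, and in lists of a few members a count of 0 or 1 is near them. They depend on level, as 2.95% and 3.88% of genes at 100 FPKM or more in *Dnmt1*-WT were past those limits. The lists were not matched for level, so a low count in a list of well expressed genes is no result about that list. Of the metalloproteases linked to cleavage or shedding of PrP, *Adam10*, the main sheddase, was at 26.1 and 22.95 FPKM and *Adam17* at 9.24 and 8.77 FPKM. *Adam9* was at 16.07 and 23 FPKM. *Adam8*, at 0.46 and 1.2 FPKM, was the member of the 4 with a ratio over 2. Their summed level was 51.87 and 55.92 FPKM, near equal while that of *Prnp* differed 17.8 times.

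Of 27 enzymes and subunits that build and attach the GPI anchor, none had a ratio of 2 or more, beside 11.8% of all genes, and the median was 0.06. *Pigt*, a subunit of the transamidase that attaches the anchor, was at 34.95 and 49.48 FPKM, and *Dpm3*, of the mannose donor synthase, at 87.32 and 99.46 FPKM. *Mppe1*, which trims the anchor, was the exception at 9.19 and 3.93 FPKM. Of the 23 genes of protein folding in the endoplasmic reticulum and the unfolded protein response, through which PrP passes on its way to the surface, none was past either limit, and the median was -0.02. The chaperone genes *Hspa5* (BiP) and *Calr* (calreticulin) were at 155.36 and 139.29 FPKM and at 341.83 and 331.15 FPKM.

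Of 33 other GPI-anchored proteins, 11 had a ratio of 2 or more and 1 a ratio of 0.5 or less, where 11.8% and 4.98% of all genes above 0 in both libraries did, and the median was 0.59. The largest ratios were those of *Alpl*, tissue-nonspecific alkaline phosphatase (0.48 and 7.25 FPKM), and *Ly6a*, the Sca-1 antigen (4.8 and 54.34 FPKM). *Cd52*, a lymphocyte and myeloid surface peptide (5.14 and 25.88 FPKM), *Plaur*, the urokinase receptor (1.55 and 7.65 FPKM), *Cd14*, the myeloid co-receptor for lipopolysaccharide (1.2 and 4.86 FPKM), and *Bst2*, tetherin (12.09 and 48.59 FPKM), had ratios from 4.02 to 5.04. *Cd52* is also one of the 6 leukocyte markers described below, all of which had a ratio of 2 or more, as had all 7 endothelial markers, and the part of those cells in this count was not tested. The member with the lowest ratio was *Opcml*, a neuronal adhesion protein, at 5.32 and 1.65 FPKM.

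Members with high levels had ratios on both sides of 1. *Cd59a*, an inhibitor of complement lysis, led the list in the *Dnmt1*-WT library at 257.2 FPKM and was at 174.18 FPKM in the *Dnmt1*-KO library. *Gpc3*, a glypican, was at 110.86 and 132.49 FPKM, almost the same *Dnmt1*-WT level as *Prnp* with a ratio of 1.20. *Ly6e*, one of the 11, was at 93.57 and 193.3 FPKM (2.07), the highest of the list in the *Dnmt1*-KO library. All 33 together summed to 930.7 and 1181.36 FPKM, so that *Prnp*, below their sum in the *Dnmt1*-WT library, was above it in the *Dnmt1*-KO library.

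Of 8 detected partners reported for PrP, none was past either limit, near the background for so few, and the median was 0.16. *Rpsa*, the laminin receptor, was at 290.04 and 392.08 FPKM, and *App*, the amyloid precursor protein, at 266.76 and 298.86 FPKM. *Ncam1*, a neural adhesion molecule, was at 28.99 and 36.22 FPKM and *Lrp1*, an endocytic receptor, at 48.48 and 60.34 FPKM. *Cav1*, caveolin 1, was lower in the *Dnmt1*-KO library (275.23 and 198.19 FPKM), as was *Stip1*, a co-chaperone (63.51 and 48.2 FPKM). The receptor gene *Gpr126*, now *Adgrg6*, was at 13.53 and 11.46 FPKM, the kinase gene *Fyn* at 18.2 and 20.4 FPKM, and *Grm5*, a glutamate receptor gene, was listed at 0 in both libraries.

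Copper and zinc handling genes, listed because PrP binds copper, had 4 of 21 members at a ratio of 2 or more, none at 0.5 or less, 17 higher in the *Dnmt1*-KO library and a median of 0.35, beside 11.8% and 4.98% of all genes past those limits. The 4 were the metallothioneins *Mt1* and *Mt2*, ceruloplasmin *Cp*, the copper oxidase of plasma (1.23 and 6.29 FPKM), and *Sod3*, extracellular superoxide dismutase (21.08 and 44.66 FPKM). The copper chaperone gene *Atox1* was at 87.25 and 169.38 FPKM and the superoxide dismutase gene *Sod1* at 367.51 and 538.04 FPKM. The copper importer gene *Slc31a1* (9.13 and 11.69 FPKM) and the exporter gene *Atp7a* (5.35 and 3.83 FPKM) were low in both.

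Of 5 transcription factor genes linked to the *Prnp* promoter in other systems, none was past either limit, and the median was -0.23. *Sp1*, which binds GC boxes, was at 18.62 and 12.89 FPKM, and *Hsf1*, the heat shock factor, at 18.73 and 15.92 FPKM. *Mtf1*, the metal-responsive factor, was at 4.57 and 3.83 FPKM. *Trp53* was at 29.28 and 37.16 FPKM and *Xbp1* at 44.25 and 50.4 FPKM. The RNA level of a factor does not measure its activity.

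**Figure D4:**
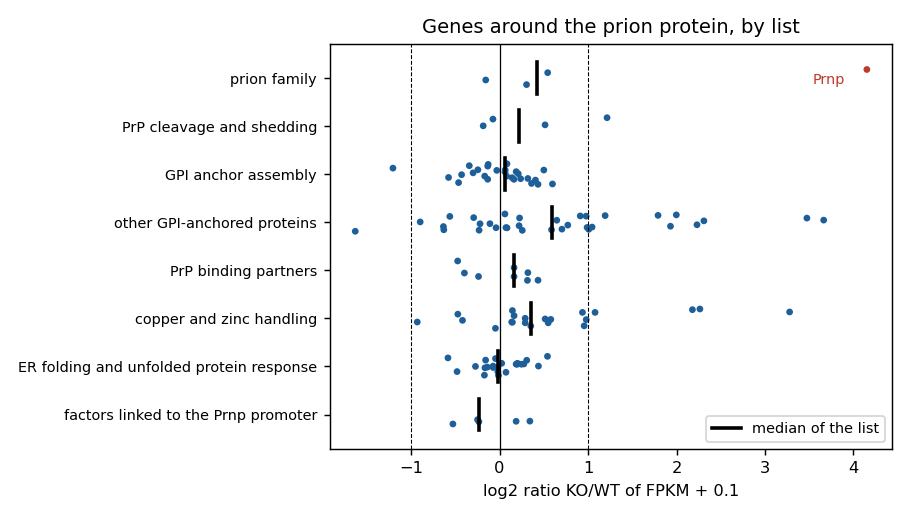
Log2 ratio of *Dnmt1*-KO to *Dnmt1*-WT FPKM + 0.1 (horizontal) of each member of 8 lists around the prion protein (rows), with the list median as a vertical bar and ratios of 2 and 0.5 as dashed lines. *Prnp* lies beyond every other point at about 4.15, and the medians of the lists lie between -0.23 and 0.59.

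Markers of other cell types of the gut wall were set beside *Prnp*, because many cell types can make PrP. The 11 enteric neuron markers summed to 784.92 FPKM in *Dnmt1*-WT and 934.29 FPKM in *Dnmt1*-KO, 9 were higher in *Dnmt1*-KO and 1 had a ratio of 2 or more (*Nefm*, neurofilament M, 4.07 and 11.76 FPKM). The 7 enteric glia markers summed to 89.5 and 122.46 FPKM, and 1 was past a ratio of 2, the intermediate filament gene *Gfap* (4.78 and 35.36 FPKM). *Sox10*, the defining factor of enteric glia, was at 25.16 and 27.88 FPKM. Counts of 1 are near the 11.8% of all genes with a ratio of 2 or more.

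Several other lists had most members past a ratio of 2, beside the 11.8% of all genes. All 6 leukocyte markers had a ratio of 2 or more, with sums of 26.08 and 85.48 FPKM, and so did 8 of 9 macrophage markers, with sums of 146.84 and 513.16 FPKM, led by *C1qa* at 31.57 and 125.26 FPKM. All 7 endothelial markers were past 2 (59.21 and 168.27 FPKM). All 6 adipocyte markers were past 2 (109.79 and 1204.4 FPKM), most of it *Fabp4* (8.43). The other 5 adipocyte markers were between 0.29 and 2.61 FPKM in the *Dnmt1*-WT library and had ratios larger than that of *Prnp*, from 19.2 (*Cidec*, a lipid droplet protein) to 133 (*Retn*, resistin), and the median log2 ratio of the list was 5.70 (4.44 with a pseudocount of 1). Of the 5 Paneth cell markers 4 were past 2 and *Mmp7* was at 0 in the *Dnmt1*-WT library (16.6 and 160.22 FPKM).

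Dendritic cell and T cell markers were low in both libraries and higher in *Dnmt1*-KO. The 6 dendritic cell markers summed to 2.38 and 6.78 FPKM, with *Cd209a* and *Xcr1* at 0 in the *Dnmt1*-WT library. The 5 T cell markers listed summed to 0.42 and 3.91 FPKM, with *Cd3d*, *Cd3e* and *Cd8a* at 0 in the *Dnmt1*-WT library. Follicular dendritic and B cells were not among the lists.

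The remaining lists were mixed. The 10 smooth muscle markers summed to 17053 and 12255 FPKM, with 4 at a ratio of 0.5 or less (4.98% of all genes) and none higher in the *Dnmt1*-KO library, and the 5 markers of interstitial cells of Cajal to 167.63 and 137.24 FPKM. Fibroblast markers summed to 3087.96 and 4843.79 FPKM, with *Col1a1* past 2, mesothelial markers to 274.38 and 284.88 FPKM and enterocyte markers to 279.57 and 623.62 FPKM, with *Fabp1* and *Apoa4* past 2 and *Sis* below 0.5. Pancreatic acinar markers were found almost only in the *Dnmt1*-WT library (34.44 and 0.63 FPKM), while the erythroid markers summed to 54.89 and 32.85 FPKM. Among the latter *Hbb-bt* (7.53 and 29.69 FPKM) and *Alas2* (0.95 and 2.95 FPKM) had ratios over 2, whereas *Hbb-b1*, at 46.41 FPKM in *Dnmt1*-WT and listed at 0 in *Dnmt1*-KO, set the direction of the sum. The globin genes *Hbb-bs* and *Hba-a2*, given above and not in the list, were higher in *Dnmt1*-KO. *Prnp* alone, at 1976.73 FPKM, exceeded in the *Dnmt1*-KO library the summed markers of each list apart from smooth muscle and fibroblasts. The part of these cell types in the *Prnp* values was not tested.

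**Figure D5:**
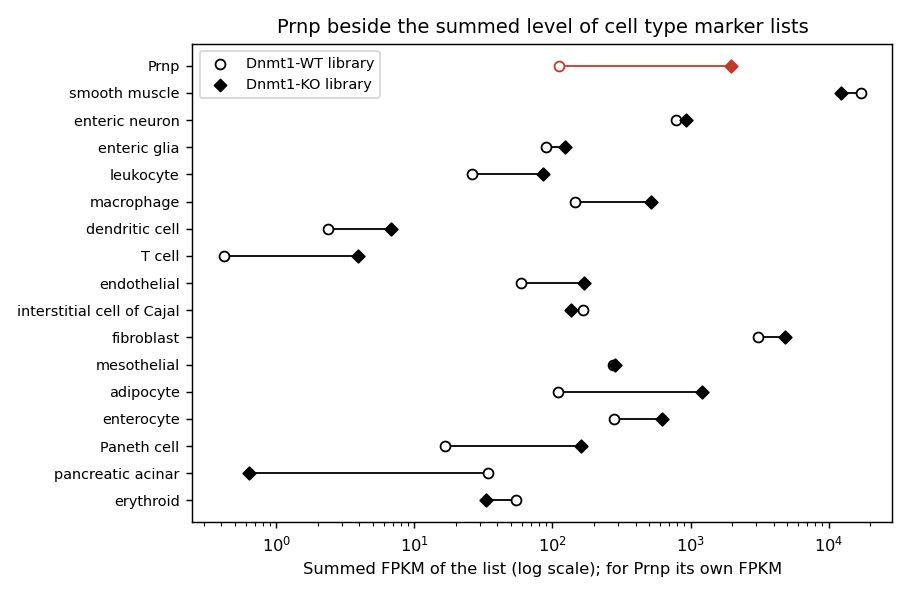
FPKM of *Prnp* (red) and summed FPKM of 16 lists of cell type markers (log scale), *Dnmt1*-WT as open circles and *Dnmt1*-KO as filled diamonds. *Prnp* goes from 111.12 to 1976.73 FPKM, the adipocyte list from 109.79 to 1204.4 FPKM, the macrophage list from 146.84 to 513.16 FPKM and the enteric neuron list from 784.92 to 934.29 FPKM.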

How the data were processed

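The authors prepared TruSeq libraries from total RNA of the jejunal muscle layer, mapped reads to GRCm38/mm10 and deposited 1 table with the FPKM of 18159 gene symbols in each library, counts of transcript variants and a fold ratio. The submitters' processing notes name TopHat 1.4.1 and Cufflinks 2.0.2 without a role. The authors' deposited ratio was not used. Samples were grouped by their genotype entries. Ratios of FPKM were computed without rescaling over genes above 0 in both libraries (level ranges also kept genes at 0 in *Dnmt1*-KO), and list medians used log2(FPKM + 0.1). No test was possible with 1 library for each genotype. *Prnp* and the gene lists were chosen with earlier results of these data known. The genes named were *Prnp*, list members, the 10 listed genes on each side, the 10 nearest in level, genes with at least 100 FPKM in the *Dnmt1*-KO library and a ratio of at least 5, and genes ranking above *Prnp*. Genes next after *Prnp* in gain or ratio, *Eef1a1* and the genes of the level ranges were named outside this rule, with their values already seen. Of 233 symbols in the lists 230 were matched, 4 of them by a synonym, and 1 further marker is not reported here and was left out of its list. Gene models and transcripts came from GENCODE M21 (17204 symbols, 94.7%), and gene positions and the windows before gene starts from RefSeq. Counting was tested on simulated data. Python 3.11.15, numpy 2.4.6, pandas 2.3.3 and matplotlib 3.10.9 were used. Scaling, pseudocounts, filters and level ranges were varied.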

Additional observations from a re-analysis of the deposited data

How the results depend on the processing

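No paired analysis was possible because each genotype had 1 library, and for the same reason no library could be left out. *Prnp* ranked first among genes of its level under all 8 alternatives tried for that rank. Its ratio of 17.8 was 18.2 with the median log2 ratio set to 0, 18.1 with a trimmed mean set to 0, 18.6 by the upper quartile, 16.6 by the FPKM sum and 16.7 by that sum without small RNA genes. The FPKM sum moved the median of all genes by 0.10 on the log2 scale, the other scalings by less. With a pseudocount of 1 the ratio was 17.6 and with 10 it was 16.4. Centred on genes of like transcript length it was 16.6 and of like GC content 17.9. Of the genes at its *Dnmt1*-WT level, 14 had a ratio of 2 or more, against 9 under either FPKM sum, 15 with the trimmed mean, 16 with the median, 20 by the upper quartile and 56 of 2520 in a range of 4 times. Among its neighbours 1 was past 2, against 3 with 20 genes on each side (*Adra1d*, *Siglec1* and *Fermt1*) and 0 with at least 1 FPKM in one library. Medians of lists moved to 0.21 (PrP cleavage), 0.41 (other GPI-anchored proteins), 0.33 (copper and zinc) and -0.21 (promoter factors) with a pseudocount of 1, to 0.60 (other GPI-anchored proteins) and 0.52 (copper and zinc) with 0.01, and to 0.072 (GPI anchor enzymes) and 0.43 (copper and zinc) with at least 1 FPKM in one library. The adipocyte median of 5.70 was 4.44 with a pseudocount of 1 and 5.93 with 0.01. None of these medians changed sign. Fragment counts behind single values were not computed, and levels near 0 carry little weight.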
